A study of Mus musculus with 8 samples.

Results

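Annexins are proteins that bind negatively charged phospholipids in the presence of calcium through a core of repeated domains, and each member carries its own N-terminal tail that decides which partners it meets. They work on the inner face of membranes in vesicle traffic, in links between membrane and actin and in the resealing of damaged membranes, and some also act at the cell surface. The intestinal epithelium is known to use several of them, among them Anxa13, a myristoylated member found mainly in the intestine, and Anxa2, which joins S100a10 in a heterotetramer. The annexins described here were the 10 genes Anxa1, Anxa2, Anxa3, Anxa4, Anxa5, Anxa7, Anxa8, Anxa10, Anxa11 and Anxa13, taken by gene symbol from a table of read counts that held 13420 genes. The table also listed 2 other annexins, Anxa6 and Anxa9, which were not among the 10. All 10 members passed the filter on low counts.

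The libraries came from mouse small intestine organoids. WT cells carried a membrane-bound tdTomato from the mTmG reporter on a C57BL/6 background. Cancer cells came from an organoid line, labelled with Dendra2, that was made from Villin-CreERT2 mice on C57BL/6 whose alleles included Apc fl/fl and Tr53 fl/R172H, in which Cre is limited to the intestinal epithelium and was switched on with tamoxifen. They were therefore transformed epithelial cells in culture and a single line, not tumour tissue. Each population was grown alone (pure) or aggregated with the other at 2 WT parts to 1 cancer part (mixed), and live cells were sorted by colour on day 3 after mixing. This gave 4 groups of 2 bulk libraries, named here by their wells: pure WT (A01 and A05), mixed WT (A02 and A06), pure cancer (A03 and A07) and mixed cancer (A04 and A08). The labels do not say whether the 2 libraries of a group came from separate cultures, so p-values measure the spread between these libraries, which may be technical.

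The upstream sequences of Anxa10 and Anxa2 are shown because both genes differed strongly between the populations and because theirs were the member promoters that held the letters TGANTCA, the motif of AP-1, a family of stress-activated transcription factors. Sequences are from RefSeq on GRCm38.p6 and are written 5′ to 3′ on the gene's strand, with the AP-1 motif in capitals. Bases from the annotated transcript starts onwards were left out. The Anxa10 sequence is chr8:62123194-62123443 on the minus strand, and the Anxa2 sequence is chr9:69453433-69453619 on the plus strand.
Anxa10: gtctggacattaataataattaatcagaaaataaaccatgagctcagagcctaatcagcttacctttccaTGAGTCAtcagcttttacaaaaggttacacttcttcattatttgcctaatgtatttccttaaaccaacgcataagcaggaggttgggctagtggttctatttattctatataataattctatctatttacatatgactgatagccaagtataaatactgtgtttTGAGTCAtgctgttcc
Anxa2: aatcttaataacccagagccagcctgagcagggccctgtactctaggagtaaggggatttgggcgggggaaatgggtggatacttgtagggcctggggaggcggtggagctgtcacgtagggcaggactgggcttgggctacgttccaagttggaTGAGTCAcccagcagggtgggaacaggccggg

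The motifs were searched on both strands over the 250 bases before and 50 bases after each RefSeq start, for 8 of the 10 members (10 promoters). Anxa3 and Anxa13 had no entry in the promoter table. Anxa10 held 2 matches, which began 180 and 16 bases upstream of its RefSeq start. Anxa2 held 1, which began 95 bases upstream of its RefSeq start. The Anxa2 sequence printed above stops short of that start, at 69453619, because the GENCODE annotation begins the gene at 69453620. Of 32851 mouse promoters of the same length, 7.81% held at least 1 match and 0.46% held 2 or more. GGAATG, the core of the motif of TEAD factors, was in 14.7% of those promoters and in 1 member promoter, that of Anxa1, 236 bases upstream. These matches are a description of letters, and factor binding was not measured.

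The shallowest library was A02 (mixed WT) with 73109 reads on genes and the deepest was A04 (mixed cancer) with 4733121, and mixed WT and pure cancer were the shallower groups. Levels are given as CPM, reads scaled to library size with TMM factors that make libraries comparable. A count of 3 reads over both libraries of a group equals 1.04 CPM for pure WT, 0.566 CPM for mixed cancer, 5.72 CPM for pure cancer and 5.80 CPM for mixed WT. A count of 3 reads in library A02 alone equals 39.3 CPM, so levels in A02 are coarse. In A08 alone, with 201137 reads on genes, that count equals 15.6 CPM, so the low floor of mixed cancer rests on A04. Epithelial markers (Epcam, Cdh1, Vil1, Krt8, Krt18 and Krt19) were all present, with a summed level of 4503 to 15254 CPM per library. Of 6 immune markers only Cd68 was listed, at 68.8 CPM or less, the 2 listed of 5 mesenchymal markers summed to at most 7.31 CPM, and none of 3 endothelial markers was listed. The Apc and Trp53 alleles themselves could not be checked, since the reads come from the 3′ end of transcripts. Of 6 Wnt targets, the genes that Apc loss is known to activate, Nkd1 and Notum were higher in pure cancer than in pure WT, Ascl2 was lower (log2 fold change -2.00), and Axin2 (-0.91), Lgr5 (-1.32) and Sp5 (-1.88) did not pass, with a summed level of 325 to 391 CPM in pure WT and 365 to 404 CPM in pure cancer.

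The first question was how the annexins of cancer cells differ from those of WT cells. Anxa1, Anxa2, Anxa3 and Anxa5 were higher in cancer cells, and Anxa10 and Anxa13 were lower, when pure cancer cells were compared with pure WT cells. Anxa4, Anxa7, Anxa8 and Anxa11 did not pass the test. Thus 6 of the 10 annexins passed the test (edgeR, with p-values adjusted by the Benjamini-Hochberg method across the 5264 tested genes and a threshold of 0.05), where 9.95% of all tested genes did. The 4 higher members stand beside 5.11% of tested genes called higher, and the 2 lower beside 4.84% called lower. The median log2 fold change of the 10 members was 1.89, beside -0.05 over all tested genes. The libraries of the groups did not overlap for 9 members (5 above and 4 below), which was also the case for 52.6% of tested genes. In bulk RNA of this kind, fewer cells of a type and less RNA per cell cannot be told apart.

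**Figure D1:**
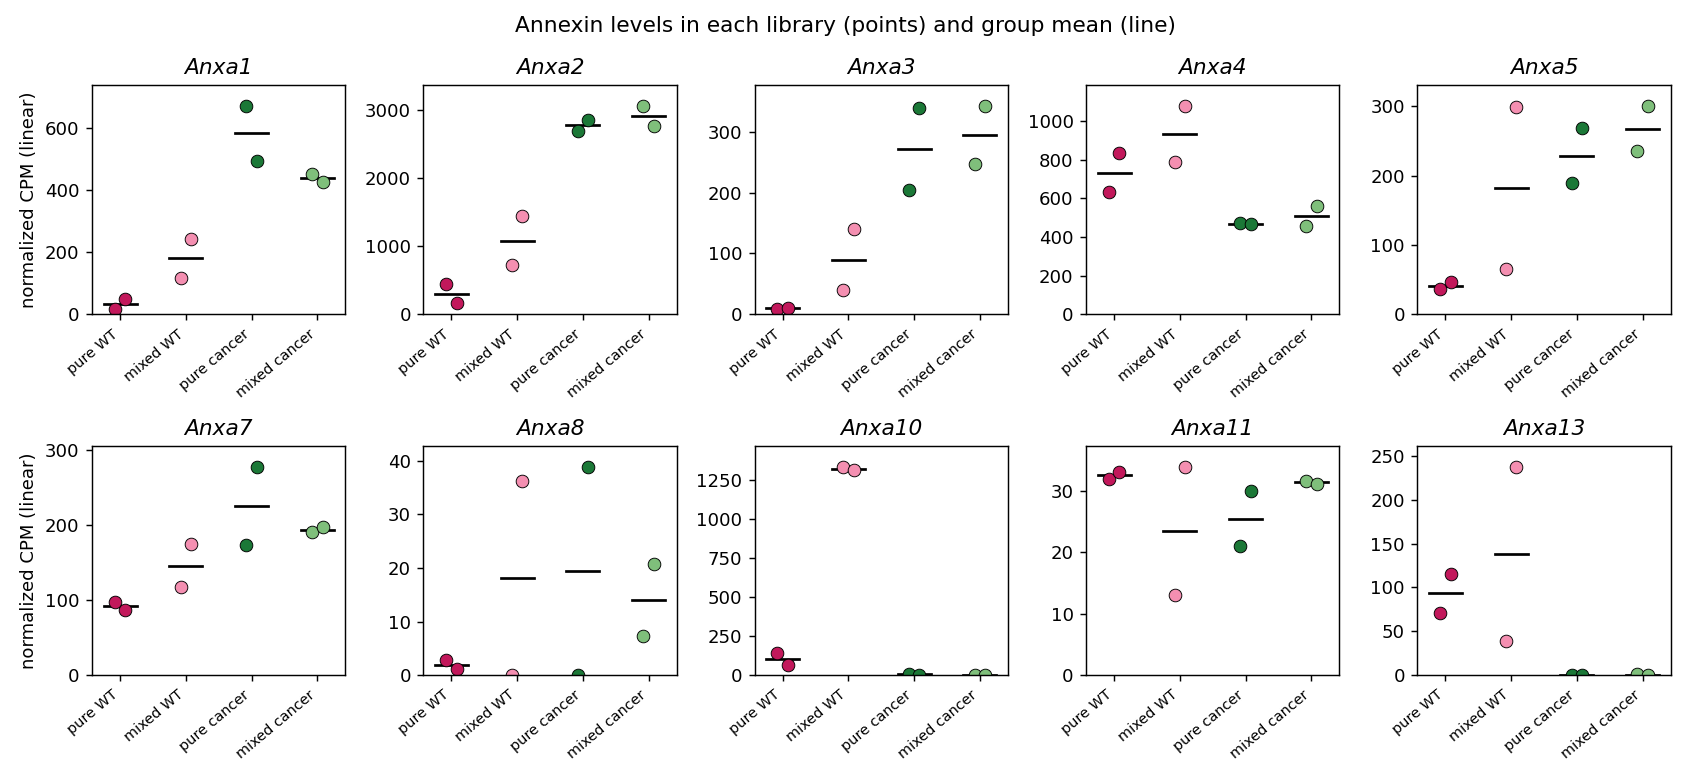
Normalized level (CPM, linear axis from 0, own scale per gene) of each annexin in the 2 libraries of each of the 4 groups, with points for libraries and a line for the group mean. Anxa1, Anxa2 and Anxa3 lie lowest in pure WT, between in mixed WT and highest in cancer cells, whereas Anxa10 reaches 1312 and 1337 CPM in mixed WT and stays at or under 5.25 CPM in cancer cells.

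Anxa1 is a calcium-dependent phospholipid-binding protein with anti-inflammatory action and a known substrate of the EGF receptor. Its gene lies on chromosome 19 (GRCm38, 20373428 to 20390944). Anxa1 stood at 18.3 and 49.5 CPM in pure WT, 118 and 242 CPM in mixed WT, 672 and 494 CPM in pure cancer and 451 and 425 CPM in mixed cancer. All 4 cancer libraries lay above all 4 WT libraries, and the mixed WT libraries lay between pure WT and cancer. The level of Anxa1 was 583 ± 126 CPM in pure cancer and 33.9 ± 22.0 CPM in pure WT (SD, n = 2 each), a log2 fold change of 4.07 ± 0.557 (SE, adjusted p = 2.21e-05).

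Anxa3, on chromosome 5 (96793339 to 96845966), was the member with the largest rise from pure WT to pure cancer cells. It stood at 9.15 and 11.2 CPM in pure WT, 39.3 and 140 CPM in mixed WT, 205 and 338 CPM in pure cancer and 246 and 342 CPM in mixed cancer. The 39.3 CPM of library A02 rests on 3 reads. No WT library reached the lowest cancer library. The log2 fold change of Anxa3 between pure cancer and pure WT was 4.72 ± 0.624 (SE, adjusted p = 1.41e-05).

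Anxa2 links membranes to actin and, with S100a10, binds tissue plasminogen activator at the cell surface. It lies on chromosome 9 (69453620 to 69491795), just downstream of the sequence printed above. Anxa2 stood at 453 and 160.2 CPM in pure WT, 721 and 1441 CPM in mixed WT, 2692 and 2861 CPM in pure cancer and 3064 and 2770.0 CPM in mixed cancer. The mixed WT libraries again lay between pure WT and cancer, and the 2 cancer groups overlapped. The log2 fold change of Anxa2 between pure cancer and pure WT was 3.18 ± 0.492 (SE, adjusted p = 9.97e-05). With molecule barcodes in place of reads the call was lost (2.40, adjusted p = 0.182). The barcode counts of Anxa2 were 177 and 127 in pure WT and 175 and 215 in pure cancer. In A04, a mixed cancer library on neither side of this comparison, the count was 256, the largest value that barcode counts took in these data. The part of this limit in the lost call was not tested.

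Anxa5, the phosphatidylserine-binding protein widely used to stain dying cells, lies on chromosome 3 (36448923 to 36475894). It stood at 36.6 and 46.7 CPM in pure WT, 65.5 and 299 CPM in mixed WT, 189 and 269 CPM in pure cancer and 235 and 301 CPM in mixed cancer. The mixed WT libraries were far apart, 1 near pure WT and the other among the cancer libraries. Between pure cancer and pure WT the log2 fold change of Anxa5 was 2.46 ± 0.571 (SE, adjusted p = 0.00531). Without library A01 it was 2.25, with an adjusted p of 0.0512.

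Anxa10 is known as a marker of gastric-type epithelium and lacks most of the calcium-binding sites of the family. It lies on chromosome 8 (62057042 to 62123150). Anxa10 stood at 139 and 67.4 CPM in pure WT, 1337 and 1312 CPM in mixed WT, 5.25 and 2.99 CPM in pure cancer and 3.13 and 0 CPM in mixed cancer. The 4 groups were ordered mixed WT, pure WT and then cancer, with no overlap between the WT and cancer libraries. Both pure cancer libraries together held 2 reads of Anxa10 beside 272 reads in pure WT. The level in pure WT was 24.8 times that in pure cancer, with a 95% counting interval of 6.81 to 206 that covers counting error only, and the difference passed the test (adjusted p = 0.000289). Of the other gastric-type markers tested, named after their values were seen, Tff1 was higher in pure cancer, at 1405 ± 226 CPM beside 74.4 ± 13.8 CPM in pure WT (SD, n = 2 each), and Tff2 was also higher, at 203 beside 2.04 CPM, while Gkn3 did not pass (log2 fold change -1.85).

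Anxa13 acts in traffic to the apical membrane of epithelial cells and lies on chromosome 15 (58341471 to 58389244). It stood at 71.4 and 116 CPM in pure WT, 39.3 and 238 CPM in mixed WT, 0 and 0 CPM in pure cancer and 1.37 and 0 CPM in mixed cancer. All WT libraries lay above all cancer libraries. Pure cancer held 0 reads and pure WT 284 reads of Anxa13, so that it was at least 17.3-fold lower in pure cancer, against a floor of 3 reads over the group (adjusted p = 0.00111). Beside Anxa13 and Anxa10, the summed level of 6 enterocyte markers (Alpi, Fabp1, Fabp2, Apoa1, Apoa4 and Sis) was 674 to 1272 CPM in pure WT, 1038 to 1403 CPM in mixed WT and at most 10.5 CPM in cancer cells, and its part in their difference was not tested. Alpi made up most of this sum in mixed WT, with a mean of 859 CPM. It was also the largest part in pure WT, with a mean of 413 CPM. The means of the other 5 were lower in mixed than in pure WT. None of the 5 tested genes of the list passed upon mixing.

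The other members were closer between the populations. Anxa4, which assembles on membranes when calcium rises, lies on chromosome 6 (86736840 to 86793584). It stood at 631 and 835 CPM in pure WT, 787 and 1078 CPM in mixed WT, 472 and 467 CPM in pure cancer and 459 and 560.2 CPM in mixed cancer. All WT libraries of Anxa4 lay above all cancer libraries, but its log2 fold change of -0.64 ± 0.417 (SE) in pure cultures did not pass (adjusted p = 0.423).

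Anxa7, a promoter of membrane fusion in secretion, lies on chromosome 14 (20455260 to 20480133). It stood at 97.0 and 86.6 CPM in pure WT, 118 and 174 CPM in mixed WT, 173 and 278 CPM in pure cancer and 190.4 and 197 CPM in mixed cancer, with pure WT lowest. Its log2 fold change in pure cultures was 1.31 ± 0.493 (SE, adjusted p = 0.104). Anxa8, also on chromosome 14 (34085981 to 34100571), held 37 reads or fewer in each library and stood at 2.75 and 1.12 CPM in pure WT, 0 and 36.2 CPM in mixed WT, 0 and 38.9 CPM in pure cancer and 7.24 and 20.7 CPM in mixed cancer. The 2 libraries of each shallow group disagreed, and the sign of its fitted change turned when A07 was left out.

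Anxa11, which tethers RNA granules to lysosomes and binds S100a6, lies on chromosome 14 (25842156 to 25886804). It stood at 32.0 and 33.2 CPM in pure WT, 13.1 and 34.0 CPM in mixed WT, 21.0 and 29.9 CPM in pure cancer and 31.7 and 31.1 CPM in mixed cancer, and it passed in none of the 6 comparisons. The log2 fold change of Anxa11 in pure cultures was -0.33 ± 0.791 (SE, adjusted p = 0.887). Of the 50-base windows at the 3′ ends of its transcripts, 21.2% also occur in Gm2260 or Gm2274, so its count is uncertain. None of the 3′ end windows of the other 9 members was shared with another gene. Windows further upstream in the transcripts were not searched.

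The same difference was then taken in mixed cultures. Anxa10 and Anxa13 were again lower in cancer cells, while Anxa1, Anxa2, Anxa3 and Anxa5 no longer passed. Thus 2 of 10 members passed, both lower, where 6.42% of all tested genes passed and 4.41% were lower. Libraries did not overlap for 7 members (4 above and 3 below), beside 44.9% of tested genes. The median log2 fold change of the members was 0.26, beside 0.12 over all tested genes.

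**Figure D2:**
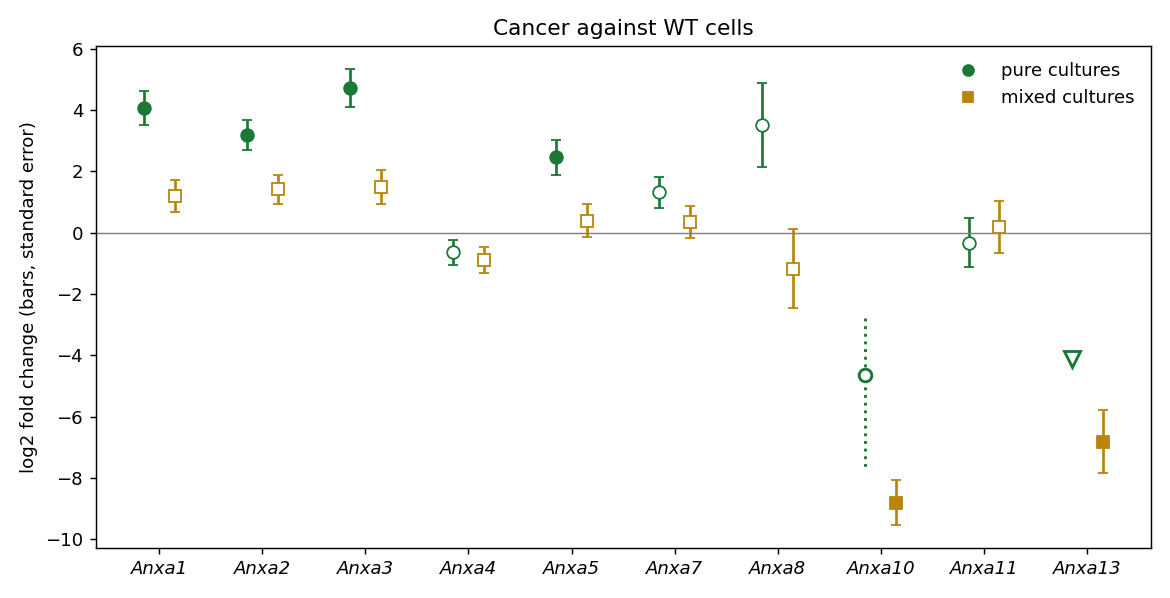
Log2 fold change of each annexin in cancer against WT cells, in pure (circles) and mixed (squares) cultures, with standard error bars and filled symbols for an adjusted p under 0.05. The dotted line for Anxa10 is the 95% counting interval of its ratio and the triangle for Anxa13 is the bound set by 3 reads, both of which passed in the fit. The symbols of Anxa1, Anxa2, Anxa3 and Anxa5 are filled in pure and open in mixed cultures.

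Anxa10 had a log2 fold change of -8.80 ± 0.723 (SE, adjusted p = 1.23e-08) in mixed cancer against mixed WT. For Anxa13 it was -6.81 ± 1.03 (SE, adjusted p = 8.58e-05), and without library A06, which held 105 of its 108 mixed WT reads, -4.80 with an adjusted p of 0.0630. All 7 mixed cancer reads of Anxa13 came from A04. There, the 52 genes with 0 reads in pure cancer and at least 50 CPM in pure WT reached 1.57% of their mixed WT level. Anxa13 was itself in this set. The part of transcripts from WT cells in the size of the Anxa13 value was not tested. The mixed value of Anxa1 was 1.19 ± 0.518 (SE, adjusted p = 0.224, 95% interval 0.12 to 2.26).

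The mixed value of Anxa2 was 1.41 ± 0.464 (SE, adjusted p = 0.0761), and it passed in 7 of 13 other settings. For Anxa3 it was 1.49 ± 0.561 (SE, adjusted p = 0.140), and for Anxa5 0.39 ± 0.550 (SE, adjusted p = 0.816). Since each interval is wide, these values do not show that the populations were alike.

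Anxa4 gave -0.89 ± 0.421 (SE, adjusted p = 0.289) in mixed cultures and Anxa7 gave 0.35 ± 0.511 (SE, adjusted p = 0.826). The mixed values of Anxa8 and Anxa11 were -1.17 ± 1.29 (SE) and 0.18 ± 0.837 (SE). None of these passed.

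Over both cultures together (the mean of the pure and the mixed difference), Anxa1, Anxa2, Anxa3, Anxa5, Anxa10 and Anxa13 passed, where 14.2% of tested genes did. Of tested genes, 6.8% were called higher and 7.37% lower in this comparison. The log2 fold change over both was 3.10 ± 0.416 (SE) for Anxa3, 2.63 ± 0.376 for Anxa1, 2.30 ± 0.336 for Anxa2 and 1.43 ± 0.393 for Anxa5. It was -6.75 ± 0.517 (SE) for Anxa10, which held 2 reads in pure cancer. The fitted value of Anxa13 is not given, because pure cancer held no read of it. Anxa4 gave -0.77 ± 0.296 (SE, adjusted p = 0.0938), with all 4 cancer libraries under all 4 WT libraries.

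The next question was whether the annexins of WT cells change when cancer cells are present. Anxa10, Anxa3 and Anxa1 rose in mixed against pure WT cells, and no annexin fell. These 3 of 10 members stand beside 0.741% of all tested genes called in this comparison and 0.646% called higher. Mixed and pure WT libraries did not overlap for 6 members, all higher in mixed WT, beside 15% of tested genes. The median log2 fold change of the members was 2.06, beside -0.10 over all tested genes.

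**Figure D3:**
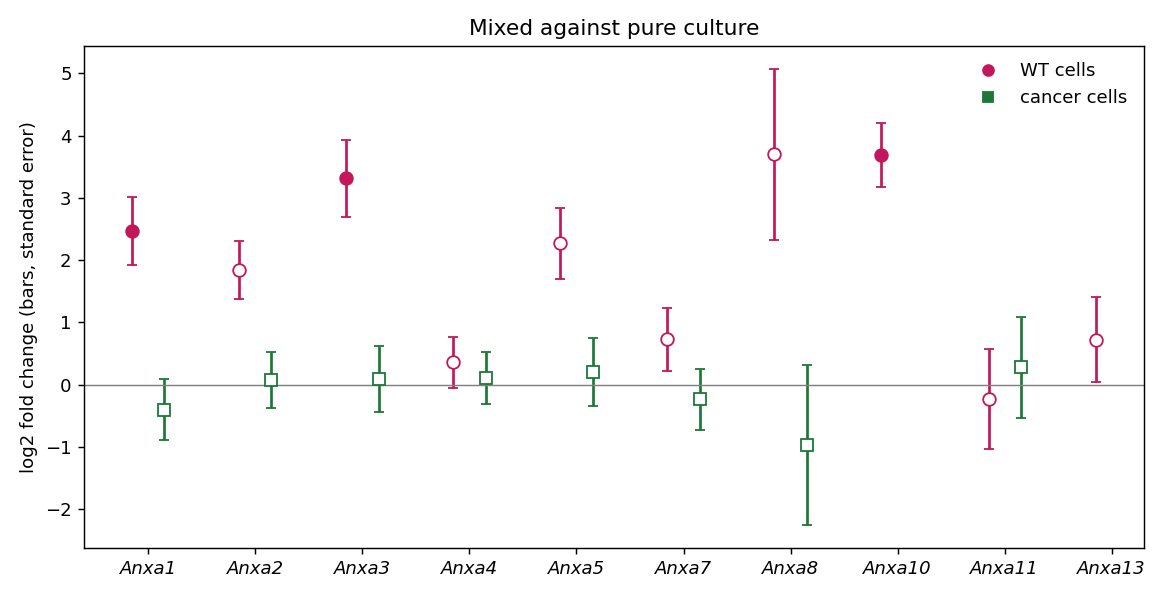
Log2 fold change of each annexin in mixed against pure culture, in WT cells (circles) and in cancer cells (squares), with standard error bars and filled symbols for an adjusted p under 0.05. Filled circles mark Anxa1, Anxa3 and Anxa10 in WT cells, no square is filled, and Anxa10 and Anxa13 have no square because pure cancer held 2 and 0 reads of them.

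Anxa10 rose from 103 ± 50.7 to 1324 ± 17.9 CPM (SD, n = 2 each), a log2 fold change of 3.69 ± 0.514 (SE, adjusted p = 0.00043). It passed in 13 of 13 other settings. Anxa3 rose from 10.2 ± 1.48 to 89.9 ± 71.5 CPM (SD, n = 2 each), a log2 fold change of 3.32 ± 0.621 (SE, adjusted p = 0.0102). Anxa1 rose from 33.9 ± 22.0 to 180.2 ± 88.0 CPM (SD, n = 2 each), a log2 fold change of 2.47 ± 0.542 (SE, adjusted p = 0.0294).

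The calls of Anxa3 and Anxa1 rested on single libraries. Without A06, the deeper mixed WT library, Anxa3 gave 1.83 (adjusted p = 0.407) and Anxa1 gave 1.68 (adjusted p = 0.338). Without A05, Anxa3 gave 3.48 with an adjusted p of 0.0686, and without A01, Anxa1 gave 1.95 with an adjusted p of 0.309. Library A06 also differed from A02 in the epithelial markers, with a summed level of 15254 beside 5519 CPM.

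Anxa5 and Anxa2 lay just outside the threshold. Anxa5 gave 2.27 ± 0.572 (SE, adjusted p = 0.0693) and Anxa2 gave 1.84 ± 0.471 (SE, adjusted p = 0.0734). Anxa2 passed in 10 and Anxa5 in 9 of 13 other settings, and without A06 they gave 1.15 and 0.56.

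**Figure D4:**
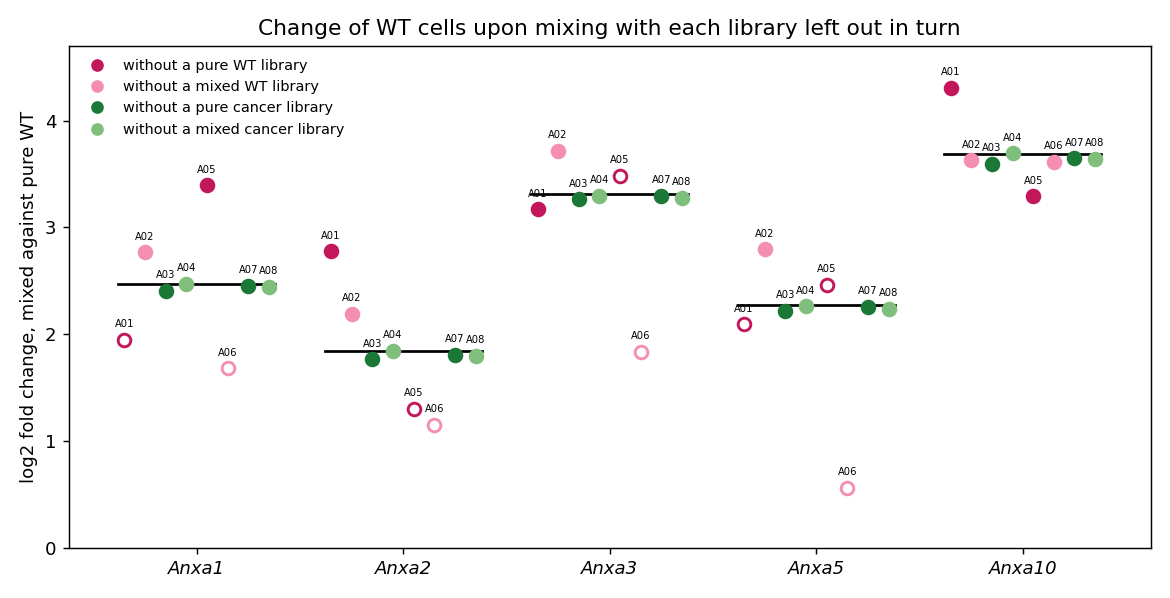
Log2 fold change in mixed against pure WT cells of the 5 annexins that passed in at least 1 setting, with each of the 8 libraries left out in turn (points, named by the library left out, filled for an adjusted p under 0.05) and with all libraries (line). Without A06 the value of Anxa5 drops to 0.56 and that of Anxa3 to 1.83, whereas Anxa10 stays between 3.29 and 4.31.

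The remaining members gave values whose intervals held 0, save Anxa8. Anxa4 gave 0.36 ± 0.415 (SE), Anxa7 gave 0.73 ± 0.508 (SE), Anxa13 gave 0.72 ± 0.681 (SE) and Anxa11 gave -0.23 ± 0.810 (SE). Anxa8 gave 3.70 ± 1.38 (SE, adjusted p = 0.316), where 16 of the 16 mixed WT reads came from A06. Summed levels of other gene groups also differed between pure and mixed WT cells, but no tested gene of these groups passed upon mixing. Wnt targets (Axin2, Nkd1, Notum, Lgr5, Ascl2 and Sp5) summed to 325 to 391 CPM in pure WT and 39.3 to 136 CPM in mixed WT. The 39.3 CPM came from A02, where it equals 3 reads. Targets of p53 (Cdkn1a, Mdm2, Ccng1, Trp53inp1, Eda2r and Phlda3) summed to 137 to 344 CPM in pure WT, 682 to 992 CPM in mixed WT and 89.8 to 199 CPM in cancer cells. Cdkn1a alone had a mean of 176 CPM in pure WT and 600 CPM in mixed WT. The part of these gene groups in the annexin changes was not tested.

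In cancer cells, no annexin passed upon mixing, and 0% of all tested genes did (edgeR). By DESeq2 the number was also 0, and at an unadjusted p under 0.05 it was 69 genes, or 1.31%, and no annexin. Anxa1 gave -0.41 ± 0.492 (SE, 95% interval -1.42 to 0.61) and Anxa2 gave 0.07 ± 0.452 (SE, 95% interval -0.86 to 1.01). Anxa3 gave 0.09 ± 0.523 (SE, 95% interval -0.99 to 1.17) and Anxa5 gave 0.20 ± 0.543 (SE, 95% interval -0.92 to 1.33). The intervals leave room for changes of about 1 log2 unit in these 4 members.

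Anxa4 gave 0.11 ± 0.420 (SE), Anxa7 -0.23 ± 0.491 (SE), Anxa8 -0.97 ± 1.28 (SE) and Anxa11 0.28 ± 0.819 (SE). Anxa10 held 2 reads in pure cancer and 16 reads in mixed cancer, all from A04, beside the far greater depth of that library. Scaled to depth, the pure level was 1.26 times the mixed level, with a 95% counting interval of 0.141 to 5.37 that includes no difference. Anxa13 held 0 reads in pure cancer and 7 reads in mixed cancer, a level under the floor of the pure group, so no fold is given.

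How the difference between the populations relates to the mixing of WT cells can be read side by side, with the reservation that both comparisons share the pure WT libraries. For Anxa1, cancer cells lay 4.07 above WT in pure culture (log2), WT rose by 2.47 upon mixing, and the difference left in mixed cultures was 1.19. For Anxa3 these values were 4.72, 3.32 and 1.49. For Anxa2 they were 3.18, 1.84 and 1.41, and for Anxa5 2.46, 2.27 and 0.39, where the mixing values of both missed the threshold. Anxa10 ran the other way, with WT above cancer cells in pure culture and WT rising by 3.69.

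The difference between the changes upon mixing (cancer minus WT) tests whether the gap between the populations was altered. No annexin passed, where 0.076% of all tested genes did (edgeR). At an unadjusted p under 0.05, 6 of the 10 members were negative, beside 3.34% of all tested genes, and by DESeq2 Anxa1 passed. Anxa1 gave -2.88 ± 0.729 (SE, adjusted p = 0.255) and Anxa3 gave -3.23 ± 0.806 (SE, adjusted p = 0.239). Anxa2 gave -1.77 ± 0.648 (SE, adjusted p = 0.549) and Anxa5 gave -2.07 ± 0.782 (SE, adjusted p = 0.560). Anxa10 gave -4.10 ± 1.52 (SE, adjusted p = 0.549), a value whose cancer side rests on 2 reads in pure cancer. Anxa8 gave -4.67 ± 1.88 (SE, adjusted p = 0.567).

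Anxa4 gave -0.25 ± 0.590 (SE), Anxa7 gave -0.96 ± 0.706 (SE) and Anxa11 gave 0.51 ± 1.15 (SE) in this difference, and no value is given for Anxa13, which had no read in pure cancer. With barcode counts Anxa1 (adjusted p = 0.0282) and Anxa3 (adjusted p = 0.0119) passed.

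Genes with 0 reads in the pure culture of a population were counted in its sorted mixed cells. Low expression under the floor of the pure group (1.04 CPM for pure WT, 5.72 CPM for pure cancer) would also give 0 reads. It cannot be told apart here from transcripts of the other population. A set of 9 genes with 0 reads in pure WT and at least 50 CPM in pure cancer held 0 reads in A02, which allows up to 5.48% of their mixed cancer level, and 3 reads in A06, which is 0.947% of it. In the opposite direction, 52 genes with 0 reads in pure cancer and at least 50 CPM in pure WT reached 1.57% of their mixed WT level in A04 and 1.24% in A08. Beside these shares, the rise of the mean level of WT cells upon mixing equalled 25.1% of the pure cancer level for Anxa1, 29.4% for Anxa3, 27.9% for Anxa2 and 61.4% for Anxa5. These shares rested on A06. From A02 alone they were 14.4% for Anxa1, 10.7% for Anxa3, 14.9% for Anxa2 and 10.4% for Anxa5, and from A06 alone they ranged from 35.8% for Anxa1 to 112% for Anxa5. For Anxa10 the mean rose by 1221 CPM, beside a pure cancer level under the floor of 5.72 CPM.

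Annexins act with EF-hand proteins and proteases, so a list of 14 known partners was examined, of which 8 were tested. In pure cancer against pure WT, 5 of the 8 were higher and none lower, beside 5.11% of all tested genes called higher. In mixed cultures 1 was higher (Plat), beside 2.01% of all tested genes, and 1 lower (Sri), beside 4.41%. Over both cultures 3 were higher, beside 6.8% of all tested genes, and 1 was lower, beside 7.37%. Upon mixing, 2 rose in WT cells (S100a6 and S100a10), beside 0.646% of all tested genes called higher, and none passed in cancer cells. S100a10, the partner of Anxa2, stood at 986 and 644 CPM in pure WT, 3657 and 2189 CPM in mixed WT, 3684 and 2209 CPM in pure cancer and 2137 and 2563 CPM in mixed cancer. Its log2 fold change was 1.85 ± 0.422 (SE, adjusted p = 0.00457) between pure cancer and pure WT and 1.84 ± 0.423 (SE, adjusted p = 0.0387) between mixed and pure WT.

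S100a6, which binds Anxa11, stood at 1653 and 868 CPM in pure WT, 3618 and 6396 CPM in mixed WT, 8702 and 7587 CPM in pure cancer and 9132 and 8990 CPM in mixed cancer. These levels follow the order of Anxa1, Anxa2 and Anxa3, with mixed WT between pure WT and cancer. S100a6 rose by 1.99 ± 0.409 (SE, log2, adjusted p = 0.0199) upon mixing of WT cells and was 2.69 ± 0.419 (SE, log2, adjusted p = 0.000107) higher in pure cancer than in pure WT.

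S100a11, which binds Anxa1, was 1.65 ± 0.464 (SE, log2, adjusted p = 0.0227) higher in pure cancer, and Ahnak, a large scaffold held at the membrane by Anxa2 and S100a10, was 2.82 ± 0.822 (SE, log2, adjusted p = 0.0281) higher. Ahnak held only 21 reads in pure WT and 31 reads in pure cancer. Its log2 fold change turned to -0.67 ± 0.829 (SE) in mixed cultures, and it passed neither there nor over both cultures. Plat, the tissue plasminogen activator, held 2 reads in pure WT and 14 reads in pure cancer, and passed in pure cultures (adjusted p = 0.00924). Sri, or sorcin, which binds Anxa7, was lower in cancer cells in mixed cultures, by a log2 fold change of -2.35 ± 0.445 (SE, adjusted p = 0.00106), with 1062 and 1776 CPM in mixed WT and 269 and 296 CPM in mixed cancer.

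A list of 14 genes of membrane repair (ESCRT-III and Vps4 subunits, ferlins, calpains, Trim72 and Cav1) held 11 tested genes. Over both cultures 2 were higher in cancer cells, the calpain subunit Capns1 with 1.11 ± 0.312 (SE, log2, adjusted p = 0.0156) and the caveolar coat protein Cav1, beside 6.8% of all tested genes called higher. Cav1 also passed in pure cultures, where its 15 reads all came from A07 and the other 3 pure libraries held none, and 0 genes of the list passed in the other comparisons by edgeR. At an unadjusted p under 0.05, 2 of the 11 were higher in mixed cultures, beside 7.94% of all tested genes. Upon mixing, 1 was higher in WT cells (5% of all tested genes) and 0 in cancer cells. At that level 4 of the 11 were higher in pure cultures and 4 over both cultures, where the share of all tested genes is not given here. The median log2 fold change of the list in pure cultures was 0.94, beside -0.05 over all tested genes.

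Genes with the most similar pattern were sought over the 8 libraries by Pearson's r of log2 CPM among 2744 genes, as a description in which depth and the difference between WT and cancer are shared by all points. For Anxa10 they were Prap1 (r = 0.970), Ifi27l2b (r = 0.968) and Lypd8 (r = 0.967), all of which were high in mixed WT and low in cancer cells, at 3745, 520.2 and 6129 CPM in mixed WT. For Anxa1 they were Anxa3 (r = 0.961), Ezr (r = 0.955), which links membrane to actin, and Bnip3l (r = 0.954), a mitophagy receptor.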

How the data were processed

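Read 2 of CEL-Seq libraries (3′ end tags) was aligned by the authors to the mm10 RefSeq transcriptome with BWA, multi-mapping reads were dropped, and featureCounts gave the counts. The deposited read counts are raw and include amplification copies. The authors also deposited barcode counts, the different molecule barcodes per gene, which level off at 256. A transcript table and a DESeq2 1.22.2 table of fold changes and p-values in mixed against pure WT were not used. Wells named the replicates and no pairs were formed.

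Read counts were tested with edgeR 4.0.16 (R 4.3.3), quasi-likelihood, TMM, filterByExpr at a minimum count of 10, all 8 libraries in 1 fit, Benjamini-Hochberg over 5264 genes, threshold 0.05. The 2 entries that are no genes, with 1 read, were left out. Standard errors are the size of the log2 fold change over the square root of F. The fit was tested on simulated counts. Alternatives were barcode counts, median-of-ratios factors, no filter, DESeq2 1.42.0, only the libraries compared and each library left out. Replicates differed beyond sampling noise (chi-square per degree of freedom 5.44 to 10.9). All annexins were named, with called partner genes and the 3 genes most like Anxa10 and Anxa1 with a mean of at least 50 reads. The members and lists were chosen with earlier results of these data known. Positions are from GENCODE vM21. A further allele of the cancer line is not reported here.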

Additional observations from a re-analysis of the deposited data

Results flagged for a closer look

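The Anxa1 values of the 2 populations differed in sign between mixed and pure culture, with no overlap of libraries in either, but no change in cancer cells passed. Anxa1 was picked from the 10 members for this pattern. In WT cells 15% of all tested genes also lay higher in mixed culture without overlap. The share for cancer cells is not given here. Both mixed WT libraries (118 and 242 CPM) lay above both pure WT libraries (18.3 and 49.5 CPM), and both mixed cancer libraries (451 and 425 CPM) lay below both pure cancer libraries (672 and 494 CPM). The difference between the changes was -2.88 ± 0.729 (SE, log2, cancer minus WT), with an adjusted p of 0.255 in edgeR over all tested genes, so the difference did not pass the test. Over 12 other settings it lay between -3.75 and -2.08 and passed in 4. The change in cancer cells taken alone was -0.41 ± 0.492 (SE, adjusted p = 1).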

How the results depend on the processing

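The annexin calls held in all other settings except those of Anxa2 over both and in pure cultures (lost with barcode counts), Anxa5 in pure cultures (without A01), Anxa13 in mixed cultures (without A06), and Anxa1 (without A01 or A06) and Anxa3 (without A05 or A06) upon mixing of WT cells. The number of annexins called upon mixing of WT cells was 3, beside 5 with median-of-ratios factors, with DESeq2 and with only the libraries compared, and 1 (without A06) to 5 with a library left out. In the difference between the changes it was 0, beside 2 with barcode counts, 1 with DESeq2, and 0 to 2 with a library left out. Genes called upon mixing of WT cells numbered 39, beside 44 to 108 in other settings and 2 (without A06) to 118 (without A07) with a library left out. In the difference between the changes they numbered 4, beside 4 to 23 and 1 to 32. In pure cultures they ran from 261 (without A05) to 745 (without A02) around 524, and in mixed cultures from 167 (without A04) to 506 (without A07) around 338.

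With barcode counts, signs turned for Anxa11 over both cultures (0.081), Anxa4 in pure cultures (0.25), Anxa2 (-0.0080) and Anxa5 (-0.030) in mixed cultures, and Anxa2 (-0.61), Anxa3 (-0.19), Anxa4 (-0.39) and Anxa5 (-0.25) upon mixing of cancer cells. The call of Anxa2 over both cultures was lost with barcodes (1.20, adjusted p = 0.416). Its barcode count in A04 stood at 256, where barcode counts level off. The cause of the lost call was not tested. With a library left out, signs turned within these ranges: over both cultures, Anxa11 -0.28 to 0.48 and Anxa8 -2.71 to 5.16. In pure cultures, Anxa8 -4.29 to 4.31. In mixed cultures, Anxa5 -0.18 to 2.08, Anxa11 -0.11 to 1.31 and Anxa8 -1.74 to 6.87. Upon mixing of WT cells, Anxa11 -1.40 to 0.017, Anxa13 -1.34 to 1.30 and Anxa8 -4.30 to 4.24. Upon mixing of cancer cells, Anxa3 -0.22 to 0.56, Anxa5 -0.022 to 0.55, Anxa7 -0.52 to 0.22 and Anxa8 -1.86 to 6.82. In the difference between the changes, Anxa13 -0.72 to 5.11, Anxa4 -0.46 to 0.10 and Anxa8 -5.55 to 3.42. No paired analysis was run, because each library carries its own well and the groups share no number. Mixed WT and mixed cancer cells were sorted from mixed cultures, so libraries of these groups may share a culture, which the labels do not say. Depth limited Anxa8 in mixed WT and pure cancer, and Anxa10 and Anxa13 in pure cancer.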
